A study of Mus musculus with 9 samples.

Results

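The 10 genes described here form the enzymatic defense against reactive oxygen species together with 2 stress-regulated genes, Nupr1 and Txnip. They are Nupr1, Txnip, Sod1, Sod2, Cat, Gpx1, Prdx1, Prdx2, Selenom and Gstm2. They were selected by symbol, with earlier results of these data known, and all 10 were found among the 31053 genes of each count matrix. The cells were Lin- Sca1+ cKit+ (LSK) bone marrow cells of C57BL/6 mice, the compartment that holds the hematopoietic stem and progenitor cells, profiled by 3' single-cell RNA sequencing after viable freezing and thawing. There were 3 samples of young control mice (10 to 12 weeks old), 3 of aged control mice (older than 80 weeks) and 3 of aged mice (older than 80 weeks) treated with CASIN, an inhibitor of the activity of the small GTPase Cdc42. All mice received 4 intraperitoneal injections, 1 every 24 h, of either 25 mg/kg CASIN in cyclodextrin or of cyclodextrin alone. Sequencing batch 1 held young 1 and 2, aged 1 and CASIN 1 and 2, and batch 2 held young 3, aged 2 and 3 and CASIN 3. The labels do not say whether a sample was 1 mouse or a pool, so p-values measure the spread between these samples.

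As background, superoxide released by the respiratory chain and by NADPH oxidases is converted to hydrogen peroxide by superoxide dismutases, SOD1 in the cytosol and SOD2 in the mitochondrial matrix. Peroxide is then removed by catalase (Cat) in peroxisomes, by the selenoenzyme glutathione peroxidase 1 (Gpx1) and by the thiol-based peroxiredoxins (Prdx1, Prdx2). Gstm2 encodes a glutathione transferase, which couples glutathione to electrophilic compounds, and Selenom a selenoprotein of the endoplasmic reticulum with a thioredoxin-like fold. Txnip encodes an arrestin-like protein that binds thioredoxin and limits glucose uptake, and its transcription follows glucose supply through MondoA and ChREBP. Nupr1 encodes a small nuclear protein induced by endoplasmic reticulum and amino acid stress through ATF4. Hematopoietic stem cells are mostly quiescent and keep a low level of reactive oxygen species, and a rise in that level is known to drive them out of quiescence.

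Sequences around the starts of these genes are given because several members are known targets of stress-responsive transcription factors. All 10 genes matched a RefSeq promoter, read here as the 250 bases before the transcription start in GRCm38.p6. A set of 4 motifs was searched on both strands, with N for any base: the E-box CACGTG, the core of the C/EBP-ATF composite element TGATGNAA, the core of the antioxidant response element TGACNNNGC and the carbohydrate response element, taken as a pair of CACGAG half-sites 5 bases apart. No 2 of the matches overlapped. The lines below give 30 bases around each match, 5' to 3' on the strand of the gene, with the match in capitals.
Txnip, carbohydrate response element, + strand, chr3:96557866-96557895: actgtgCACGAGGGCTGCACGAGcctccag
Nupr1, E-box, - strand, chr7:126625678-126625707: gcgagagctttcCACGTGgaaaaacacagc
Nupr1, C/EBP-ATF element core, - strand, chr7:126625562-126625591: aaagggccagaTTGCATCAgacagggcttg
Prdx1, antioxidant response element core, + strand, chr4:116685456-116685485: cagggaaagcGCTGAGTCAtcccccgtagg
Sod1, antioxidant response element core, + strand, chr16:90220696-90220725: gccaaggtggGCGTGGTCAgactcaggcct

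The carbohydrate response element lay at positions -85 to -69 from the Txnip start, and Txnip was the 1 promoter of 32851 that held it in this exact form (0.00304%). The string allows no variant of its half-sites, so this rarity depends on how strictly it was written and is not a result about Txnip. The whole Txnip window, chr3:96557707-96557956 on the + strand, is printed here because Txnip differed several-fold between the sequencing batches. Whether the element has a part in that difference was not tested. In GENCODE M21 all 250 of its bases also lie in an exon of Gm15441, a gene on the opposite strand.
Txnip promoter: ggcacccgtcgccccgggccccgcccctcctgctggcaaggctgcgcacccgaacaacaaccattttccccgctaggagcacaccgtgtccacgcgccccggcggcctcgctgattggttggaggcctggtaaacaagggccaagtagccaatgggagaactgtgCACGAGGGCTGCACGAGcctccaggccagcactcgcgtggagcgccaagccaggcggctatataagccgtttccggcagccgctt

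The E-box lay at -225 to -220 and the C/EBP-ATF core at -110 to -103 of the RefSeq Nupr1 start, motifs held by 6.02% and 3.45% of all promoters. GENCODE M21 starts Nupr1 transcripts further upstream, so all 250 bases of that window are exonic there. The antioxidant response element core lay at -133 to -125 in Prdx1 and at -56 to -48 in Sod1, and 10.2% of all promoters held it. The Selenom (chr11:3514434-3514683, + strand) and Gstm2 (chr3:107986421-107986670, - strand) windows held none of the 4 strings, which says only that these letters are not in these windows.

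Of 32387 barcodes, 15856 cells passed the filters, with median depths of 9531.5 to 14622 UMIs (unique molecular identifiers, 1 per captured transcript) per cell and sample. Barcodes above the limit of 10% mitochondrial UMIs made up 10.96% to 40.62% in the batch 1 libraries and 59.12% to 66.79% in the batch 2 libraries. Of the cell barcodes kept, 54 sequences occurred in more than 1 library. Kit (112 to 225 CPM) and Ly6a, which encodes Sca1 (87.9 to 186 CPM), the surface markers of the sort, were detected in every sample. Clustering on 3000 variable genes, chosen after leaving out the 10 members and 94 other redox genes, gave 9 clusters named from marker lists and 2 left unnamed. The largest stem cell cluster, called HSC-1-like (3578 cells, all 14 of its markers higher than in the other cells), held 11.3%, 12.3% and 13.8% of the cells in young 1 to 3, 39.7%, 21.7% and 16.7% in aged 1 to 3 and 30.8%, 27.9% and 32.4% in CASIN 1 to 3. In sums over all LSK cells, a larger share of a cell type and more RNA per cell cannot be told apart, so each gene is also given within classes. Levels are CPM, the UMIs of a gene summed per sample and scaled to the same total in every sample. UMIs of a 3' library count molecules and do not grow with transcript length, so CPM needs no length correction between genes. How well each gene is captured was not examined, so orders between genes are orders of UMIs.

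In all LSK cells, 2 of the 10 genes rose between young and aged samples and none fell, at an adjusted p under 0.05 in edgeR's quasi-likelihood test with batch as a term. Of the 13642 genes tested, 4.1% were called. The 2 were Selenom, 3.05-fold higher in aged samples, and Gstm2, 15.2-fold higher. The median log2 fold change of the 10 was 0.15, against 0.01 over all genes tested. Selenom stood at 18.8, 20.9 and 19.3 CPM in young 1 to 3 and at 115, 33.6 and 22.8 CPM in aged 1 to 3. Every aged sample lay above every young one, but aged 3 only just, and aged 1, the only aged sample of batch 1, was far above the rest. The log2 fold change was 1.61 ± 0.35 (SE) with an edgeR adjusted p of 0.0376. It was 2.53 within batch 1 and 0.55 within batch 2. The call was lost without any 1 of aged 1 (0.83, adjusted p = 0.121), aged 2, young 1, young 2 or a CASIN sample (adjusted p of 0.0535 to 0.145).

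Gstm2 was close to absent in young LSK cells, at 0.740, 1.08 and 0.678 CPM (26, 34 and 12 UMIs), and reached 25.4, 3.79 and 0.821 CPM (467, 84 and 17 UMIs) in aged 1 to 3. The aged group ran from the young level in aged 3 to far above it in aged 1. Its log2 fold change was 3.93 ± 0.65 (SE, edgeR adjusted p = 0.0171), being 4.80 in batch 1 and 1.77 in batch 2. The call was lost without aged 1 (2.69, adjusted p = 0.103), young 1 (3.48, 0.0987) or young 2 (3.83, 0.0923). Gstm2 is 1 of a family of related genes on chromosome 3. Gstm6, listed at 0.0953 to 2.12 CPM, was also highest in aged 1, as were Gstm1, Gstm4 and Gstm5. How reads shared between members of the family were counted was not examined, so the Gstm2 level is uncertain.

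Nupr1 did not pass the threshold in all LSK cells. It stood at 7.52, 5.49 and 42.0 CPM in the young samples and at 284, 90.8 and 78.2 CPM in the aged samples, so the groups did not overlap. Young 3 of batch 2 held several times more than the young samples of batch 1, and aged 1 of batch 1 several times more than the aged samples of batch 2. The log2 fold change was 3.22 ± 0.79 (SE, edgeR adjusted p = 0.0545), with 5.45 within batch 1 and 1.01 within batch 2. It passed in DESeq2 (adjusted p = 0.0128), without the filter on low counts (0.00214), with no limit on mitochondrial UMIs (0.0289), without young 3 (4.83, 0.00307) and without aged 3 (3.75, 0.0413). Without aged 1 it was 1.65 (adjusted p = 0.122).

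Txnip differed mainly between the sequencing batches. It stood at 270, 281 and 51.8 CPM in young 1 to 3 and at 397, 80.7 and 55.4 CPM in aged 1 to 3. Within each batch the aged samples were higher, by 0.53 on the log2 scale in batch 1 and by 0.39 in batch 2. The fitted log2 fold change of 0.47 ± 0.14 (SE) had an edgeR adjusted p of 0.0945 and was called without aged 3 (0.58, 0.0247) and, just under the threshold, in DESeq2 (0.0498) and without the filter on low counts (0.0491).

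The 6 core enzymes Sod1, Sod2, Cat, Gpx1, Prdx1 and Prdx2 differed little between aged and young LSK cells. Their log2 fold changes lay between -0.12 (Gpx1) and 0.17 (Sod1), with edgeR adjusted p of 0.302 to 0.998. The widest 95% intervals among them ran from -0.27 to 0.27 for Cat and from -0.35 to 0.10 for Gpx1. Gpx1 had the highest level of the 10 genes in UMIs, at 468 to 789 CPM. It was followed by Prdx2 (285 to 535 CPM) and Prdx1 (283 to 421 CPM), whose ranges overlapped. Sod2 (85.9 to 128 CPM) and Sod1 (77.9 to 111 CPM) were close to each other, and Cat was low at 19.7 to 25.5 CPM.

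Within HSC-1-like cells, Nupr1, Selenom and Gstm2 were all higher in aged than in young samples, 3 of 10 genes where 7.66% of the 11257 genes tested were called. None of the 10 was called lower. Nupr1 stood at 49.9, 38.7 and 124 CPM in young 1 to 3 and at 514, 388 and 399 CPM in aged 1 to 3. The groups were well separated, and the young sample of batch 2 was again the highest of its group. The fitted fold was 6.51 (log2 2.70 ± 0.28 SE, edgeR adjusted p = 8.05e-05), with a log2 of 3.53 within batch 1 and 1.67 within batch 2. Leaving out young 3 gave 3.35 and leaving out aged 1 gave 2.12, and the call held without each of the 9 libraries in turn (adjusted p of 5.7e-07 to 0.00124). With no batch term the log2 fold change was 2.69 and its adjusted p 0.104.

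**Figure D1:**
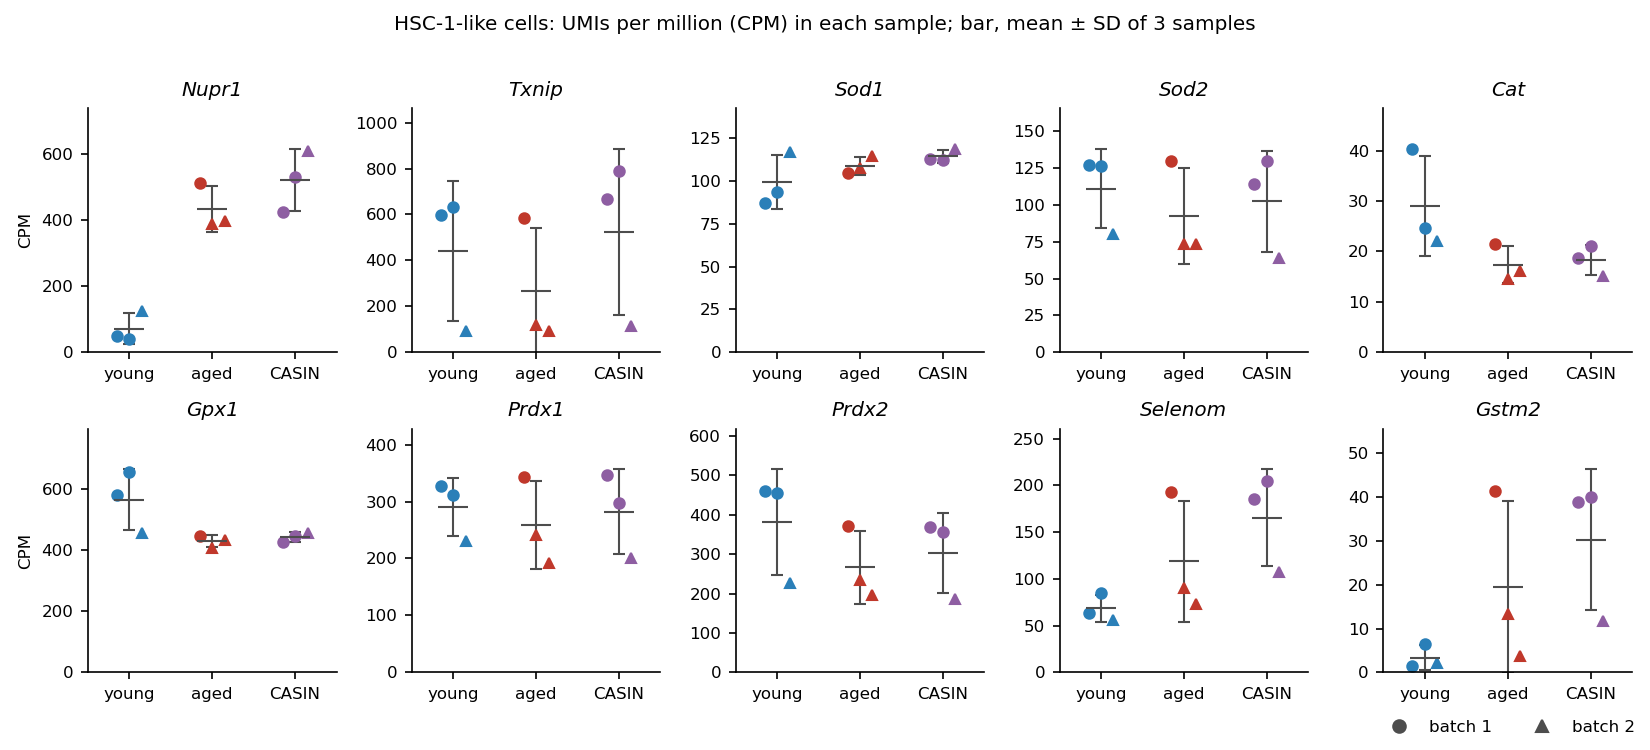
CPM of the 10 genes in HSC-1-like cells, 1 panel per gene with its own axis from 0. Points are samples (circles, batch 1; triangles, batch 2), horizontal lines are means of 3 samples and bars are ± SD, cut off at 0. Nupr1 lies at 388 CPM or more in every aged and CASIN sample and at 124 CPM or less in every young sample, while the Txnip points of batch 2 (90.3 to 119 CPM) lie far below those of batch 1 (585 to 789 CPM) in every group.

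Selenom in HSC-1-like cells stood at 63.7, 84.9 and 56.5 CPM in the young samples and at 193, 90.6 and 72.7 CPM in the aged samples. Aged 3 lay below young 2, so the groups overlapped, while within each batch the aged samples were higher. The log2 fold change of 1.10 ± 0.17 (SE, edgeR adjusted p = 0.00155) was 1.38 within batch 1 and 0.53 within batch 2, and without aged 1 it was 0.79 with an adjusted p of 0.0546. Gstm2 had 4, 20 and 4 UMIs in the young samples (1.38, 6.56 and 2.22 CPM) and 273, 48 and 10 UMIs in the aged samples (41.3, 13.4 and 3.65 CPM). Aged 3 was again within the young range. Its log2 fold change was 3.16 ± 0.44 (SE, edgeR adjusted p = 0.00073) and stayed called without each library in turn, at 2.51 without young 1, 4.01 without young 2 and 2.74 without aged 1 (adjusted p = 0.0432).

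Cat and Gpx1 did not pass the test in HSC-1-like cells, where 7.66% of all genes were called. Their aged samples lay below the young ones, also within each batch, but how many of all genes separate in this way was not counted. Batch 2, with 2 of the 3 aged samples, ran lower for both genes. Means in batches 1 and 2 were 25.2 and 17.0 CPM for Cat and 512 and 439 CPM for Gpx1. Cat stood at 40.3, 24.6 and 22.2 CPM in young and at 21.5, 14.5 and 16.1 CPM in aged samples. The gap between the groups was narrow, since aged 1 was just below young 3. The log2 fold change of Cat was -0.52 ± 0.19 (SE, edgeR adjusted p = 0.121), with -0.60 within batch 1 and -0.54 within batch 2. Gpx1 stood at 582, 656 and 458 CPM in young and at 447, 408 and 433 CPM in aged samples, a log2 fold change of -0.28 ± 0.12 (SE, edgeR adjusted p = 0.178) that was called without young 3 (-0.47, adjusted p = 0.0186). Sod1, Sod2, Prdx1, Prdx2 and Txnip had log2 fold changes of -0.12 to 0.16 with edgeR adjusted p of 0.423 to 0.812. The 95% interval for Txnip ran from -0.13 to 0.40.

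A list of 17 genes that respond to cell handling (immediate early and heat shock genes such as Fos, Egr1 and Hspa1a) moved with age and with batch. Its summed level in HSC-1-like cells was 2437 to 10190 CPM in young samples and 3900 to 15743 CPM in aged samples, with 9443 to 16199 CPM in batch 1 and 2437 to 5708 CPM in batch 2. In the aged against young comparison 10 of the 17 were called higher in HSC-1-like cells and 9 of 17 in all LSK cells. Their part in the results on Nupr1, Txnip, Selenom and Gstm2 was not tested. The handling list also holds Fos and Jun, which mark the HSC-2 stem cell cluster of the authors, and no cluster here was named for it. Whether such cells lie among the HSC-1-like cells was not tested. Lists of other cell types were low in HSC-1-like cells. The 10 red cell markers summed to 17.2 to 78.5 CPM in young and up to 43.9 CPM in aged samples, with 2 of them at 0 throughout, and the 8 mature granulocyte markers to 4.59 to 8.96 and 1.66 to 30.7 CPM, also with 2 at 0. The 10 stromal and endothelial markers (1 at 0) summed to 40.6 to 204 CPM in young, 30.9 to 36.8 CPM in aged and 36.8 to 91.3 CPM in CASIN samples, so young and aged samples did not overlap. The 10 lymphocyte markers (3 at 0) summed to 16.6 to 51.8 CPM in young, 6.20 to 19.7 CPM in aged and 3.95 to 11.8 CPM in CASIN samples. The part of these lists in the results on the members was not tested. Over all LSK cells the granulocyte markers reached 421 CPM in aged 3, against 3.59 to 89.7 CPM in the other samples.

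The 10 genes divided by class along the path from stem cells to progenitors, as a description with no test, since the classes come from the same cells. Nupr1, Selenom, Txnip and Gstm2 were highest in HSC-1-like cells. Nupr1 averaged 342 CPM over the 9 samples there, 174 in interferon MP-like cells (myeloid progenitors with interferon response genes), 151 in HSC-3-like cells (stem cells with MHC class II genes), 115 in MPP1-like, 89.6 in MPP3-like and 61.0 in MPP2-like multipotent progenitors. It was 25.7 and 17.6 in the cycling CC-2-like and CC-1-like cells and lowest, 8.84, in LMPP-like cells, the lymphoid-primed progenitors. Neighbours in this order overlapped widely between samples, for example HSC-3-like (4.20 to 373 CPM) and MPP1-like cells (0 to 345 CPM). Every HSC-1-like sample (38.7 CPM or more) lay above every LMPP-like sample, of which CASIN 3 was the highest.

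Selenom averaged 118 CPM in HSC-1-like, 65.8 in HSC-3-like and 7.24 in LMPP-like cells, and Gstm2 17.7, 5.95 and 0.342 CPM. In every sample the HSC-1-like level of Selenom (56.5 CPM or more) exceeded the LMPP-like level (11.4 CPM or less). Txnip has to be read within batch. In batch 1 it averaged 655 CPM in HSC-1-like, 572 in MPP1-like, 543 in HSC-3-like, 231 in LMPP-like and 136 in CC-1-like cells. In batch 2 the same classes averaged 104, 77.7, 90.2, 58.5 and 50.8 CPM, so the classes lay closer together there.

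Prdx1, Prdx2 and Gpx1 were lower in HSC-1-like than in LMPP-like cells on average. Prdx1 was highest in CC-1-like (514 CPM, range 436 to 583) and MPP2-like cells (478 CPM, 392 to 571), a class led by DNA replication genes, and lower in HSC-1-like (277 CPM, 191 to 347) and MPP1-like cells (221 CPM, 164 to 281). The sample ranges of the 2 higher classes did not overlap those of the 2 lower ones. Gpx1 averaged 841 CPM in CC-2-like, 668 in LMPP-like and 480 in HSC-1-like cells, and Prdx2 517, 443 and 317 CPM in the same order. Sod1 and Cat were highest in MPP1-like cells, at 167 CPM (125 to 212) and 35.6 CPM (23.8 to 42.2), and Sod2 differed least, from 80.4 CPM in CC-2-like to 120 CPM in interferon MP-like cells. The MPP1-like cells had the lowest median depth of the classes, 6452 UMIs per cell, and as few as 21 cells in a sample. Whether this had a part in their levels was not tested.

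**Figure D2:**
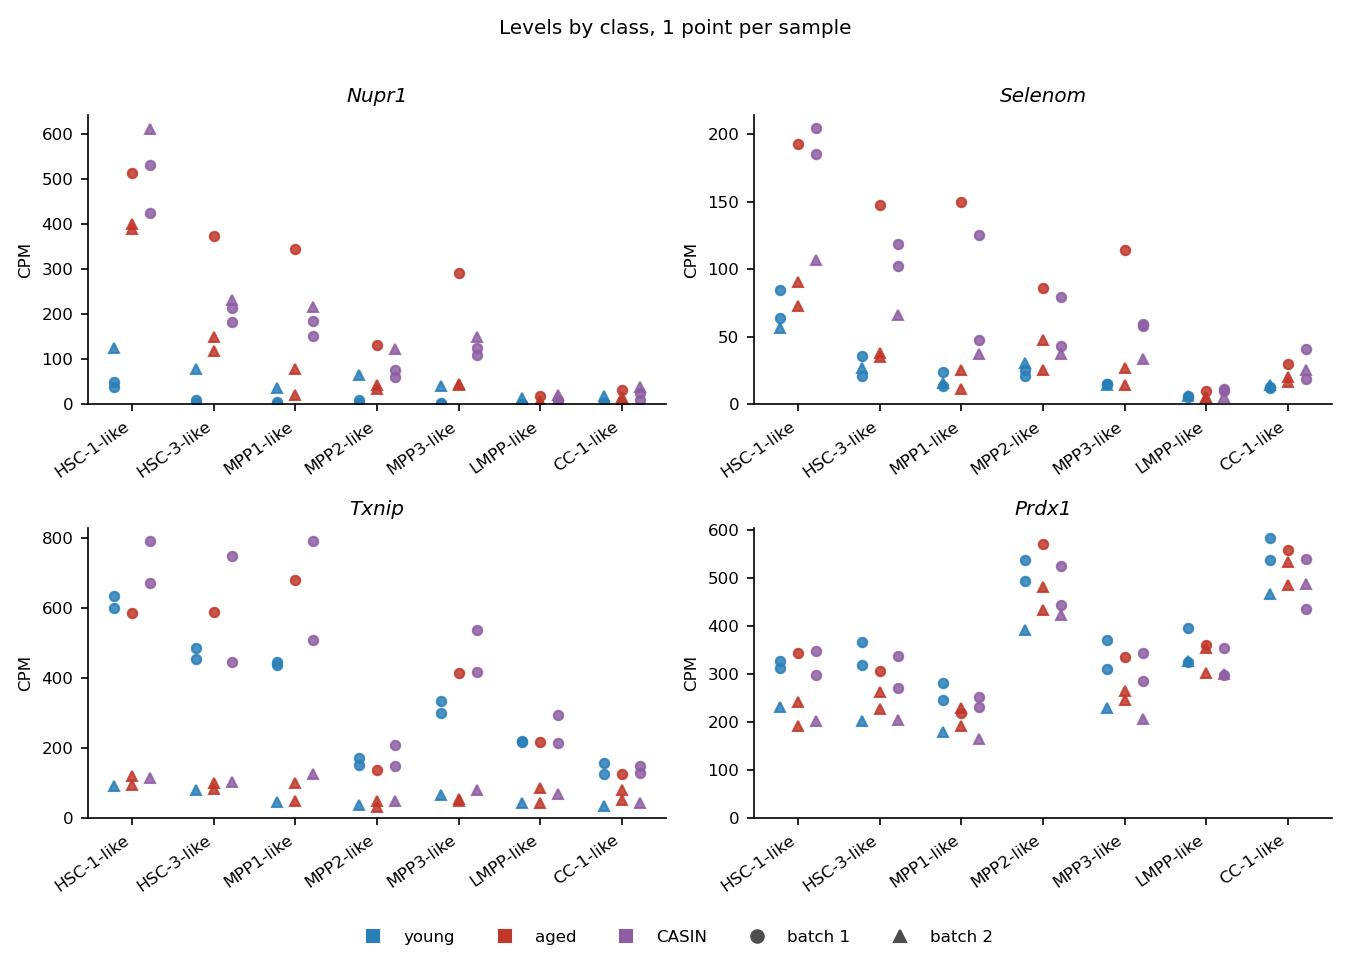
CPM of Nupr1, Selenom, Txnip and Prdx1 in the 7 named classes with at least 20 cells in each sample, 1 point per sample, coloured by group, with circles for batch 1 and triangles for batch 2. Nupr1 and Selenom decline from HSC-1-like to LMPP-like cells, aged 1 stands above the other aged samples in HSC-3-like, MPP1-like and MPP3-like cells, and Prdx1 is highest in CC-1-like cells.

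In HSC-3-like cells 3 members were called higher in aged samples (1.25% of the 8892 genes tested were called). Nupr1 stood at 10.2, 4.20 and 78.7 CPM in young and at 373, 150 and 119 CPM in aged samples, with no overlap (log2 3.35 ± 0.60 SE, edgeR adjusted p = 0.00863). Selenom stood at 36.1, 21.0 and 27.3 CPM in young and at 147, 34.8 and 37.7 CPM in aged samples (log2 1.78, adjusted p = 0.0101). The third was Gstm2, with 0, 2 and 0 UMIs in young and 24, 1 and 0 in aged samples, so almost all aged UMIs came from aged 1. It reached at most 1.41 CPM in batch 2 and passed the filter on low counts only through aged 1, CASIN 1 and CASIN 2. Its call is therefore no support for a rise across the aged samples. In MPP1-like cells (1.1% called) 9 members passed the filter on low counts and Nupr1 was called (log2 3.25 ± 0.75 SE, adjusted p = 0.0284) on 2, 0 and 18 UMIs in young and 92, 43 and 13 UMIs in aged samples.

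In MPP3-like cells (1.84% called) Selenom and Gstm2 were called. Selenom stood at 15.5, 15.4 and 14.2 CPM in young and at 114, 27.1 and 14.1 CPM in aged samples (log2 2.02 ± 0.40 SE, edgeR adjusted p = 0.0303). Gstm2 had 6, 2 and 1 UMIs in young and 100, 5 and 2 UMIs in aged samples. For both genes aged 1, the only aged sample of batch 1, was far above the other aged samples. The Gstm2 call is therefore no support for a rise across the aged samples. Nupr1 in the same class had a log2 of 3.40 ± 0.99 (SE) with an adjusted p of 0.12, and its within-batch values were 6.78 in batch 1 and 0.14 in batch 2. No member was called in MPP2-like (0.639% of genes called), LMPP-like (0.203%) or CC-1-like cells (0.361%), where the log2 fold changes of Nupr1 were 1.58, 1.53 and 1.11.

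Whether the change with age differed between HSC-1-like and LMPP-like cells was tested as a class by group term in 1 edgeR fit over both classes. None of the 10 genes passed, while 2.87% of the 12231 genes tested did. For Nupr1 the difference was 1.17 ± 0.59 on the log2 scale (SE, adjusted p = 0.389). Its young LMPP-like level rested on 2, 2 and 61 UMIs, and the difference was -1.98 without young 3 (adjusted p = 0.278) and 2.23 without aged 1 (adjusted p = 0.0124). For Gpx1, which was lower in aged HSC-1-like cells and level in aged LMPP-like cells (log2 0.01), the difference was -0.28 ± 0.09 (SE, adjusted p = 0.109), and it was called without young 3 (-0.43, adjusted p = 0.0055). For Selenom it was 0.58 ± 0.21 (adjusted p = 0.189) and for Cat -0.54 ± 0.23 (adjusted p = 0.264).

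The share of HSC-1-like cells with at least 1 Nupr1 UMI was compared after thinning each cell to 4000 UMIs, since depth sets such shares. It was 11.7%, 10.4% and 31.9% in young, 76.5%, 59.8% and 62.4% in aged and 71.1%, 76.0% and 80.2% in CASIN samples. Without thinning it was 19.9% to 53.0% in young and 76.6% to 92.2% in aged samples, at median depths of 8502 to 11194 UMIs per cell. LMPP-like cells, where Nupr1 was lowest, gave 0% to 3.73% in young and 1.64% to 5.32% in aged samples after the same thinning. There the aged samples were higher by 5.32 percentage points in batch 1, while aged minus young was -1.79 in batch 2. In CASIN samples LMPP-like cells gave 0.939% to 6.57%. How much of these shares came from free RNA was not measured. On average the aged samples exceeded the young ones by 48.3 percentage points (65.5 in batch 1, 29.2 in batch 2). A 2-sided exact permutation test of 3 against 3 samples gave p = 0.1, the smallest it can give.

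For Selenom the thinned shares were 21.3%, 26.7% and 20.2% in young, 51.2%, 32.6% and 21.6% in aged and 49.1%, 59.8% and 34.6% in CASIN samples, against 0.487% to 4.89% in LMPP-like cells. The aged and young samples overlapped (difference 12.4 points, exact permutation p = 0.2, a test that takes no account of batch). Within batches the aged samples were higher, by 27.3 points in batch 1 and 6.86 in batch 2. For Gstm2 they were 0.833%, 1.48% and 0.614% in young and 15.2%, 4.53% and 1.06% in aged samples (difference 5.95 points, exact permutation p = 0.2). LMPP-like cells held up to 0.939%, so the share in aged 3 and in the young samples was close to that of LMPP-like cells. Txnip was found in 81.7% to 91.6% of HSC-1-like cells in batch 1 and in 27.0% to 34.6% in batch 2, whatever the group. Thinning left out 1 to 12 HSC-1-like and up to 15 LMPP-like cells per sample.

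**Figure D3:**
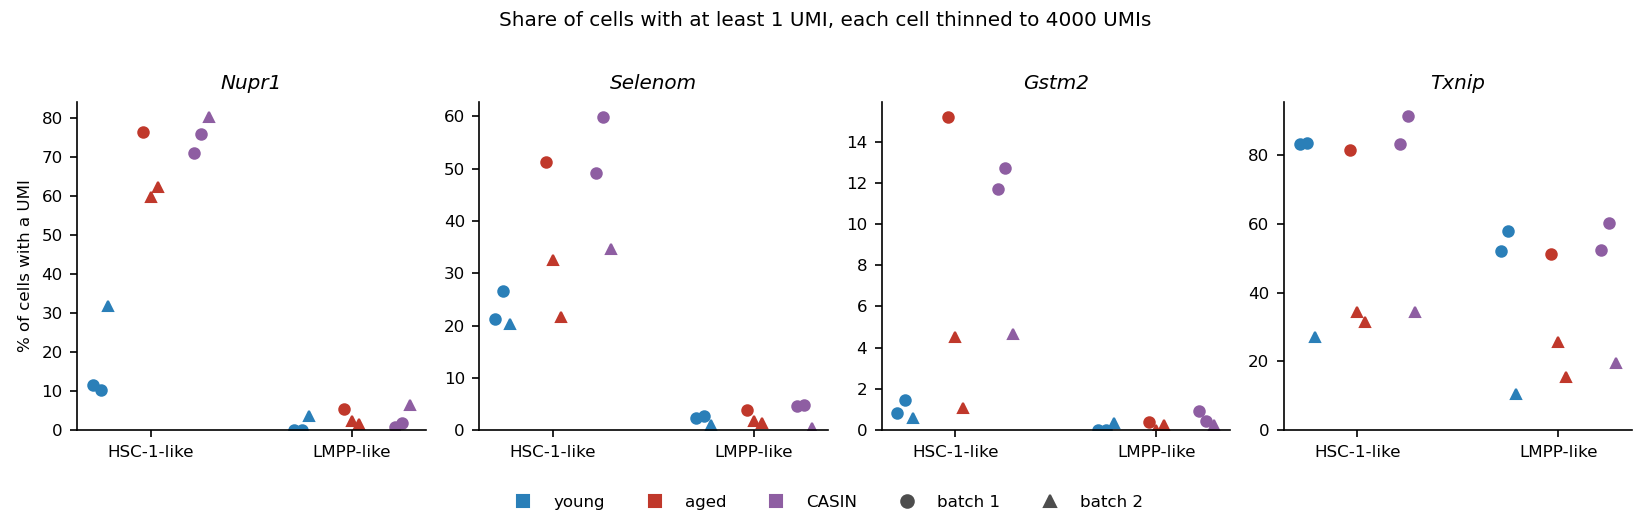
Share of cells with at least 1 UMI of Nupr1, Selenom, Gstm2 and Txnip in HSC-1-like and LMPP-like cells, each cell thinned to 4000 UMIs, 1 point per sample (circles, batch 1; triangles, batch 2; each panel has its own axis from 0). Nupr1 lies at 59.8% or more of the HSC-1-like cells in aged and CASIN samples and at 31.9% or less in young samples, and Txnip splits by batch.

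CASIN and aged samples were compared to see how far treatment moved these genes. No member was called in all LSK cells, where 0% of the 13642 genes tested were called by edgeR (0 genes also in DESeq2, 439 genes with an unadjusted edgeR p under 0.05, none of them a member). These counts depended on aged 1, the only aged sample of batch 1. A fit without it compares CASIN 1 and 2 with aged samples of batch 2 alone, through the batch term. In that fit 2462 genes, 3 of them members, had an unadjusted p under 0.05 and still none was called. Nupr1 was then 2.26 higher in CASIN samples on the log2 scale (edgeR adjusted p = 0.092), a value that depends on the batch term. In HSC-1-like cells 0% of 11257 genes were called (352 with an unadjusted p under 0.05, none a member). Without aged 1, 6 genes were called there, none a member, and 827 had an unadjusted p under 0.05, 2 of them members. Nupr1 in HSC-1-like cells stood at 425, 531 and 611 CPM in CASIN and at 514, 388 and 399 CPM in aged samples. The groups overlapped, with CASIN 1 below aged 1. The log2 difference of 0.34 ± 0.25 (SE) had a 95% interval of -0.19 to 0.87, so a fall of Nupr1 as large as its rise from young to aged samples lay outside it. Within batches the Nupr1 difference was -0.10 in batch 1 and 0.63 in batch 2, and without aged 1 it was 0.98 (edgeR adjusted p = 0.213).

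Selenom in HSC-1-like cells stood at 185, 204 and 107 CPM in CASIN samples (log2 against aged 0.22, 95% interval -0.11 to 0.56) and Gstm2 at 38.9, 40.0 and 11.7 CPM (0.08, -0.54 to 0.71). For both genes the CASIN and aged samples overlapped, and CASIN 1 and 2 lay close to aged 1 of the same batch. The other members lay between -0.14 (Prdx2) and 0.18 (Txnip), and their 95% intervals stayed within -0.46 to 0.43. In all LSK cells the intervals of the core enzymes were as tight, -0.42 to 0.22, but that of Nupr1 ran from -1.25 to 1.85, since its within-batch differences were -0.72 and 1.42. No member was called against aged samples in any of the other 6 classes tested, where at most 1 gene was called (0.00883% in LMPP-like cells).

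CASIN against young samples shares the young samples with the comparison above, so its values are given beside it and not as further evidence. In HSC-1-like cells (11.9% of genes called) Nupr1 (log2 3.04, adjusted p = 1.93e-05), Selenom (1.32, 0.000179) and Gstm2 (3.25, 0.000242) were called higher and Cat lower. Cat stood at 18.6, 21.2 and 15.1 CPM in CASIN samples, all below the young range, and its log2 fold change was -0.60 ± 0.18 (SE, edgeR adjusted p = 0.0417). In all LSK cells (4.27% called) 4 members were called higher: Nupr1 (3.52, 0.0418), Txnip (0.59, 0.0457), Selenom (1.76, 0.0276) and Gstm2 (3.90, 0.0166). Txnip stood at 378, 456 and 79.5 CPM in CASIN samples, above the young samples of the same batch. None of the 4 was called without young 1, young 2, CASIN 1 or CASIN 3, and without CASIN 2 Gstm2 alone was (adjusted p of 0.0551 to 0.114 for the other 3).

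In the other classes CASIN against young called Nupr1 (log2 3.31), Selenom (1.94) and Gstm2 (4.05) in HSC-3-like cells (1.48% of genes called), Nupr1 in MPP1-like cells (3.85, 0.814%) and Gstm2 in MPP3-like (4.39, 0.808%) and CC-1-like cells (3.84, 0.224%), all higher in CASIN samples. The Gstm2 folds rest on few young UMIs, as given above for HSC-3-like and MPP3-like cells, so their size is uncertain. Its batch 2 samples reached at most 1.41 CPM in HSC-3-like, 1.82 CPM in MPP3-like and 2.44 CPM in CC-1-like cells. In batch 1 the highest samples of these classes stood at 26.8, 30.8 and 6.16 CPM. The Gstm2 calls in these classes are therefore no support for a rise across the CASIN samples. None was called in MPP2-like (0.459%) or LMPP-like cells (0.106%).

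**Figure D4:**
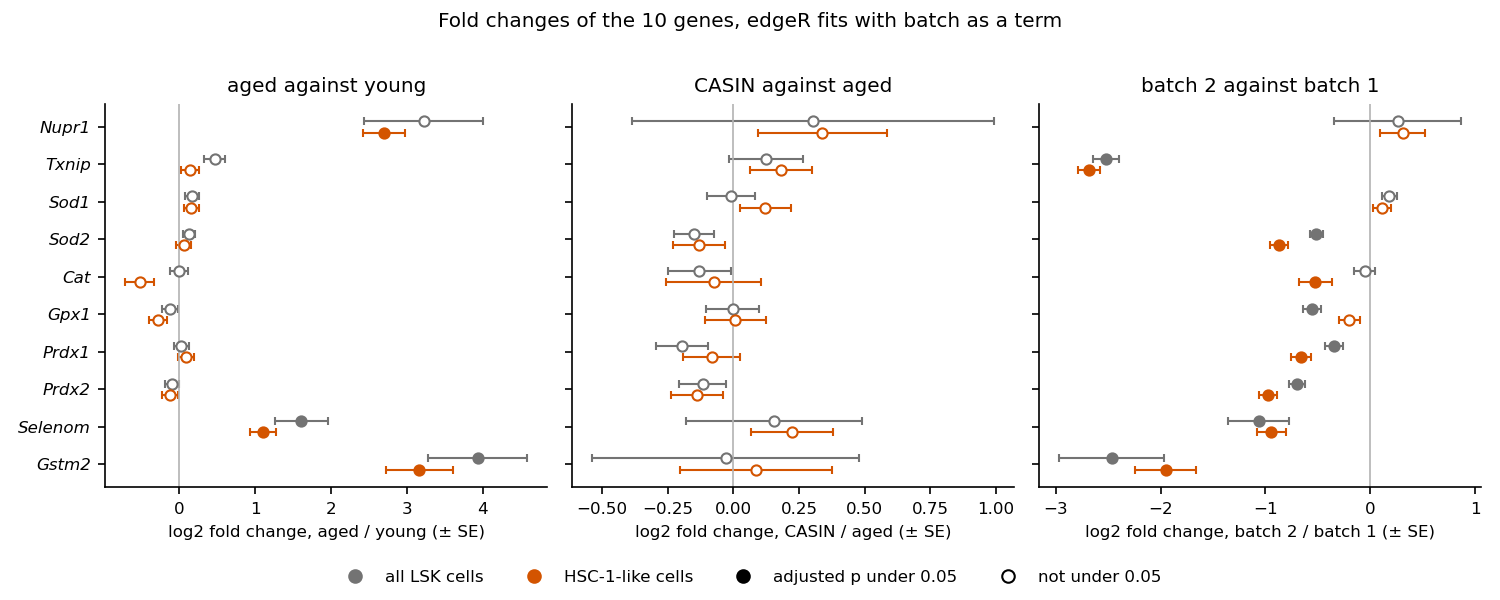
Log2 fold changes of the 10 genes with their SE from edgeR fits with batch as a term, in all LSK cells (grey) and in HSC-1-like cells (orange). Filled points have an adjusted p under 0.05, and the 3 panels have their own axes. Nupr1, Selenom and Gstm2 stand out in aged against young, no point is filled in CASIN against aged, and most points are filled and negative in batch 2 against batch 1.

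Between the sequencing batches, 71.8% of all genes tested in all LSK cells were called, 37.6% lower and 34.3% higher in batch 2. Of the 10 members 7 were lower and none higher, so the share called was that of all genes. Txnip was 5.74-fold lower (log2 -2.52 ± 0.13 SE, edgeR adjusted p = 3.2e-07), with 270 to 456 CPM in the batch 1 samples and 51.8 to 80.7 CPM in the batch 2 samples. Gstm2 fell by 2.46, Selenom by 1.07, Prdx2 by 0.70, Gpx1 by 0.56, Sod2 by 0.51 and Prdx1 by 0.35 on the log2 scale. Nupr1 (0.26 ± 0.60 SE), Sod1 (0.18) and Cat (-0.05) were not called. Without aged 1, Nupr1 was called higher in batch 2 (1.54, adjusted p = 0.00573) and Selenom was no longer called (-0.45, 0.0535), and without CASIN 3 neither was Prdx1 (-0.26, 0.0542). Sod1 was called higher in batch 2 without any 1 of young 1, young 2, aged 1, 2 or 3, CASIN 2 or CASIN 3 (adjusted p of 0.0111 to 0.0393). In HSC-1-like cells (70.4% called, 35.4% lower) 7 were again lower, with Cat (-0.53) called and Gpx1 (-0.20) not. Txnip was lower in batch 2 in all 7 classes tested, with log2 values from -1.71 in CC-1-like to -3.04 in MPP1-like cells. The members called lower numbered 7 in HSC-3-like (57% of genes called, 28.6% lower), 5 of 9 in MPP1-like (46.6%, 22.9% lower) and 7 in MPP2-like cells (64.4%, 32.2% lower). They numbered 7 in MPP3-like (68%, 34.6% lower), 5 of 9 in LMPP-like (68%, 33.8% lower) and 6 in CC-1-like cells (65.1%, 32.1% lower). Cat in MPP2-like (0.37) and Sod1 in LMPP-like cells (0.34) were the members called higher. Batch 2 also held more barcodes above the mitochondrial limit and less of the handling list, as given above, and what the batches differed in besides sequencing is not stated in the labels.

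The wider redox and stress pathways were described with 94 other genes from 8 lists (superoxide, peroxide, glutathione, thioredoxin, selenoprotein, NRF2 target, NADPH oxidase and stress response genes). In all LSK cells 92 were tested, and 11 were higher and none lower in aged than in young samples, beside 4.1% called among all genes. Counting the members, 5 of 14 stress response genes, 4 of 21 glutathione genes and 1 each of 19 NRF2, 14 thioredoxin, 14 selenoprotein and 12 peroxide genes were higher, and none of 6 NADPH oxidase or 2 superoxide genes. In HSC-1-like cells 91 of the 94 were tested, with 13 higher and 4 lower, beside 7.66% called among all genes. Between CASIN and aged samples none of them was called in either.

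The genes of the metallothioneins Mt1 and Mt2, small zinc-binding proteins that also take up reactive oxygen species, rose. Mt1 stood at 10.1, 12.7 and 23.5 CPM in young, 208, 84.5 and 83.8 CPM in aged and 163, 160 and 73.3 CPM in CASIN samples. All aged and CASIN samples lay above all young ones (aged against young log2 3.07, edgeR adjusted p = 0.0111). Mt2 stood at 0.142, 0.286 and 2.20 CPM in young and at 42.2, 14.2 and 16.4 CPM in aged samples (log2 5.28, adjusted p = 0.0108), again without overlap.

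Others that rose were the peroxidase gene Gpx8 (log2 3.73, edgeR adjusted p = 0.0270), the small Maf factor gene Maff (1.51, 0.0085), the glutathione transferase genes Gstt1 (1.26, 0.0207), Gstm5 (0.59, 0.0334) and Gstm1 (0.53, 0.0263), and Arrdc4 (0.90, 0.0108), a Txnip relative of the arrestin family that also responds to glucose. Atf3 (1.51, 0.0229), which is also on the handling list, and Ppp1r15a (0.70, 0.0120), which restores translation after stress, rose as well. Gpx8 was low, at 0.0854, 0.222 and 0.395 CPM in young 1 to 3 and 5.12, 1.44 and 0.483 CPM in aged 1 to 3. For Gstt1, Gstm5, Gstm1, Arrdc4 and Ppp1r15a, aged 1 was the highest aged sample. Their aged 3 level lay within the young range, above young 3 of the same batch. The aged 2 level did so too for Gstt1, Gstm5, Gstm1 and Ppp1r15a, so for these only aged 1 exceeded all young samples. For Arrdc4, aged 2 (14.8 CPM) lay above the young samples (8.41 to 13.4 CPM). Atf3 reached 279 and 177 CPM in aged 2 and 3 and 31.2 CPM in aged 1, the aged sample with the highest Nupr1. In HSC-1-like cells the log2 fold changes of these genes were 5.29 for Mt2, 2.96 for Mt1, 2.35 for Gpx8, 1.42 for Atf3, 0.99 for Maff, 0.82 for Ppp1r15a, 0.54 for Gstm1, 0.53 for Arrdc4 and 0.47 for Gstm5, all called, and 0.68 for Gstt1, which was not (adjusted p = 0.0805).

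The genes whose levels ran most like those of Nupr1 and Txnip were ranked by Pearson correlation of log2(CPM + 1), less the mean of the batch, over 81 sums (9 classes in 9 samples, so sums share libraries) among 2831 genes with a mean of at least 50 CPM. For Nupr1 they included Apoe (0.85), Mt1 (0.85), Selp (0.83) and Rab11a (0.83). For Txnip they were Gstm1 (0.84), Nfe2l2 (0.83), Gabarapl1 (0.83), Nkx2-3 (0.82) and Ctsl (0.82). These are descriptions across dependent points.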

How the data were processed

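LSK cells of 9 samples were sequenced with 10x 3' v3 chemistry. Per the labels, the authors made the deposited UMI counts with Cell Ranger 3.1.0 on mm10, and the matrices hold raw counts per gene and barcode. Cells were kept with at most 10% mitochondrial UMIs, at most 6000 genes and 1000 to 40000 UMIs. They also had to lie within 0.4 of the fitted line of log genes on log UMIs. Library totals were 19237354 to 42780953 UMIs. Cells were integrated with sctransform 0.4.2 and Seurat 5.3.0 (references young 2 and CASIN 3, since integrating all pairs exceeded memory) and clustered at resolution 0.4 without the 104 redox genes. Classes are rebuilt, not the authors' own. Scrublet (scanpy 1.11.5) marked 71 cells (0.448%), too few to be relied on, so no doublets were removed. Raw counts were summed per sample and class and tested with edgeR 4.0.16 (R 4.3.3; TMM, filterByExpr, quasi-likelihood F test, batch and group as terms, all 9 samples), with Benjamini-Hochberg adjustment over all genes tested. Named classes with at least 20 cells in every sample were tested. DESeq2 1.42.0 was an alternative. Shares of cells were tested with exact permutation tests. Each SE was the absolute log2 fold change divided by the square root of its F statistic, and intervals used it with the t distribution. Both are therefore approximate. Intervals and tests on few UMIs also carry counting error. Scripts were tested on simulated data. The members and lists were chosen with earlier results of these data known. Named list genes were those called in aged against young LSK cells, up to 10 by size of change. Replicate numbers were not used as pairs in the main fits, since number 2 joins samples of different batches. For Nupr1 and Txnip the 5 genes most like each were ranked, and 1 of them is not reported here.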

Additional observations from a re-analysis of the deposited data

How the results depend on the processing

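In HSC-1-like cells Nupr1 and Gstm2 stayed called without each library in turn. The calls in all LSK cells depended on the batch term and on single libraries, and the cause was not tested. Low counts limit Gstm2 in young samples. Of the 10 members, 4 were called in aged against young LSK cells with DESeq2 and 4 with no low-count filter, 1 at a mitochondrial limit of 5%, and 0 with no batch term or with only the groups compared. Of the redox list genes, 21 were called with DESeq2, 0 with no batch term and 3 with only the groups compared. In CASIN against young, 0 members were called with no batch term and 1 at the 5% limit. In HSC-1-like cells 0 members were called in aged against young with no batch term.

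Signs turned mostly for small values. With DESeq2, Gstm2 in CASIN against aged was 0.10. With no low-count filter, CASIN against aged gave 0.019 for Sod1, 0.027 for Gpx1 and 0.0039 for Gstm2, and batch 2 against batch 1 gave 0.041 for Cat. With no batch term, aged against young LSK cells gave -0.18 for Txnip, -0.047 for Sod2 and -0.097 for Prdx1, and CASIN against aged gave 0.018 for Sod2, 0.19 for Gpx1, 0.13 for Prdx2 and 0.22 for Gstm2. In HSC-1-like cells the same fit gave -0.67 for Txnip, -0.22 for Sod2 and -0.12 for Prdx1 in aged against young, and 0.15 for Sod2, 0.079 for Cat, 0.13 for Prdx1 and 0.19 for Prdx2 in CASIN against aged. With only the groups compared, Gpx1 in CASIN against aged was 0.054. At the 5% mitochondrial limit, Cat was 0.037 in aged against young, Sod2 0.054 in CASIN against young, Nupr1 -0.77 and Cat 0.13 between batches, and Gpx1 -0.038 in CASIN against aged HSC-1-like cells. With no mitochondrial limit, Prdx1 was -0.050 in aged against young and Gpx1 0.016 in CASIN against aged. Without the 5% of cells with the highest doublet scores, an alternative chosen after seeing the data, Gpx1 in CASIN against aged was 0.0020. With no batch by class term, the differences between HSC-1-like and LMPP-like cells were -0.065 for Sod1 and -0.12 for Prdx1.

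With the replicate number as a block, 0 members and 1 redox list gene were called in aged against young, 1 member in CASIN against young and 4 between batches. The block gave -0.095 for Prdx1 in aged against young, 0.014 for Gpx1 and 0.18 for Gstm2 in CASIN against aged, and -0.35 for Nupr1, 0.16 for Cat and 0.0071 for Prdx1 between batches. In HSC-1-like cells it gave -0.033 for Prdx1 in aged against young, and -0.038 for Gpx1 and 0.035 for Prdx1 in CASIN against aged. Deviations of same-numbered samples from their group means correlated at 0.73 to 0.89 within a batch. They correlated at -0.61 and -0.60 for young 2 with aged 2 and aged 2 with CASIN 2, which lie in different batches. Batch was left in these deviations, so the correlations follow the batches and cannot show whether same-numbered samples of a batch were paired.

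Leaving out 1 library at a time, 0 to 4 members and 1 to 16 redox list genes were called in aged against young, 0 to 4 members in CASIN against young, and 0 to 1 members in the difference between HSC-1-like and LMPP-like cells. The log2 values ran from -0.085 to 0.18 for Cat, -0.29 to 0.016 for Gpx1, -0.045 to 0.085 for Prdx1 and -0.22 to 0.012 for Prdx2 in aged against young. In CASIN against aged they ran from -0.084 to 2.26 for Nupr1, -0.041 to 0.075 for Sod1, -0.13 to 0.054 for Gpx1, -0.087 to 0.98 for Selenom and -0.39 to 1.09 for Gstm2, and in HSC-1-like cells from -0.18 to 0.065 for Gpx1 and -0.12 to 0.47 for Gstm2. Sod2 in CASIN against young ran from -0.042 to 0.022, and between batches Nupr1 ran from -0.67 to 1.54 and Cat from -0.13 to 0.090. The difference between HSC-1-like and LMPP-like cells ran from -1.98 to 2.23 for Nupr1, -0.16 to 0.045 for Txnip, -0.015 to 0.13 for Prdx1 and -2.14 to 0.91 for Gstm2.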

Other observations

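Further redox genes, chosen after their values were seen, were called in aged against young HSC-1-like cells. Srxn1, which encodes sulfiredoxin and reactivates overoxidised peroxiredoxins, was higher (log2 0.87 ± 0.16 SE, edgeR adjusted p = 0.00486), as was Atf4, which encodes a transcription factor of the integrated stress response (0.58 ± 0.09, adjusted p = 0.00211). The NADPH oxidase subunit genes Ncf1 (-2.12 ± 0.50, adjusted p = 0.0191) and Ncf4 (-2.56 ± 0.49, adjusted p = 0.00549), the glutathione transferase gene Mgst1 (-1.60 ± 0.37, adjusted p = 0.0165) and Selenoh, a nuclear selenoprotein gene (-0.43 ± 0.12, adjusted p = 0.0401), were lower. In all LSK cells the values were 0.65 for Srxn1, 0.31 for Atf4, -0.64 for Ncf1, -0.49 for Ncf4, -0.47 for Mgst1 and -0.21 for Selenoh, of which Atf4 alone was called (adjusted p = 0.0427).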
